A study of Homo sapiens with 6 samples.

Results

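The 10 genes described here encode immediate early transcription factors: the zinc finger genes EGR1, EGR2 and EGR3, the FOS family genes FOS, FOSB and FOSL1, the JUN family genes JUN and JUNB, the ATF family gene ATF3, and IER2, which encodes a small nuclear regulator of transcription. They were taken by gene name from the deposited table, which lists 60612 genes, and each name matched 1 row. The set was chosen by gene family, and with the counts of the raffinose and untreated libraries already known, in which EGR1 was called higher and FOS and ATF3 had come up. The members' fold changes are therefore given as a description, and support nothing. PANC-1 is a long-established line grown out of a human pancreatic carcinoma. Its poly(A) RNA was sequenced in 3 libraries of cells given 50 µM D(+)-raffinose pentahydrate, a plant trisaccharide, for 24 h, and in 3 libraries of PANC-1 cells for which the titles name no compound. The medium held serum in all 6, no vehicle is named, and the treatment field of the labels carries the same raffinose text for the untreated libraries too, so the groups rest on titles and descriptions. Separate cultures are not stated for the replicates, so the spread between libraries, and every p-value, may be technical.

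The deposited estimated counts summed to between 62756117 and 63553897 in raffinose libraries and between 59723420 and 66063664 in untreated libraries. Values of 4 were far more frequent than 3 or 5, so 1 read pair seems to add 4, and depth is given below as read pairs on that reading. The keratin genes KRT8 and KRT18, which mark simple epithelium, averaged 275 ± 33.2 and 389 ± 22.0 FPKM in raffinose libraries and 393 ± 47.2 and 521 ± 31.1 FPKM in untreated libraries (SD, n = 3 per group), while the epithelial genes KRT19 and EPCAM stayed below 0.3 FPKM. FPKM is a level per length of transcript and per sequenced fragment. The summed level of 7 listed epithelial markers, of which the vimentin gene VIM, otherwise a mesenchymal marker, gave the most, was 1374 to 1428 FPKM in raffinose libraries and 1677 to 1850 FPKM in untreated libraries. That of 7 leukocyte markers was 7.03 to 9.52 FPKM in raffinose libraries and 12.5 to 15.9 FPKM in untreated libraries, nearly all of it from CD68, which many cell types express, with the T cell gene CD3E listed at 0. The sum over 7 fibroblast markers was 44.6 to 47.3 FPKM with raffinose and 48.0 to 52.1 FPKM without. Most of it came from the collagen gene COL3A1, and only 2 of these 7 had a mean of at least 1 FPKM. Over 5 endothelial markers the sum was 0.0261 to 0.0991 FPKM with raffinose and 0.0166 to 0.116 FPKM without. The part of these shifts in the results below was not tested. In RNA of whole cultures, fewer cells with a transcript and less of it per cell cannot be told apart.

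Immediate early genes are transcribed within minutes of a growth factor, stress or calcium signal, without new protein synthesis, and their RNA is short-lived. ERK and other MAP kinases phosphorylate ternary complex factors, which bind with serum response factor (SRF) at CArG boxes, and CREB binds cyclic AMP response elements nearby. The proteins then act as a second layer: EGR factors bind GC-rich sites, and FOS, JUN and ATF proteins pair through leucine zippers into AP-1 dimers. In carcinoma cells with active RAS signalling, FOSL1 is known as a lasting AP-1 component, whereas FOS and EGR1 usually peak briefly after a stimulus.

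The promoter windows show which of these entry points lie within 250 bases before and 50 bases after a start site. Sites further away were not searched. RefSeq windows of 300 bases (GRCh38.p14, 250 before and 50 after a start) were found for 8 of the 10 genes, and none was used for EGR3 or FOSL1. For EGR1, JUN, JUNB and IER2 the RefSeq start was the start in the deposited table, and for FOS and FOSB it lay 2 and 1 bases downstream. The EGR2 starts lay 100733, 101125 and 103534 bases downstream, the last for the window shown, and the ATF3 starts 73 and 49684 bases. The 4 windows below are shown because they hold a CArG box or a cyclic AMP response core. Capitals mark CArG boxes, the core TGACGT, the EGR site GCGNGGGCG and the TATA box TATAAA, on either strand.
EGR1, chr5:138465229-138465528, plus strand: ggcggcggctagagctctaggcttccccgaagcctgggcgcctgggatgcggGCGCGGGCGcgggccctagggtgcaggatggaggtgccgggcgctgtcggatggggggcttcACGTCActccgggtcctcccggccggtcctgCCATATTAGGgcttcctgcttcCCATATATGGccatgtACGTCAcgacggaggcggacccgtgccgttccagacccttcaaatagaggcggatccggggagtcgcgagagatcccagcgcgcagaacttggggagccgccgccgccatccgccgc
EGR2, chr10:62816317-62816616, minus strand: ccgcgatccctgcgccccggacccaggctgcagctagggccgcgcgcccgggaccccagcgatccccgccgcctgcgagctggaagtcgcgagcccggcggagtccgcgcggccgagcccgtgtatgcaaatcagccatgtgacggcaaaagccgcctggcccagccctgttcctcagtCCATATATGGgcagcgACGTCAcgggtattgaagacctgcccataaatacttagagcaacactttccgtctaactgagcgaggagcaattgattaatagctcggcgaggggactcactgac
FOS, chr14:75278578-75278877, plus strand: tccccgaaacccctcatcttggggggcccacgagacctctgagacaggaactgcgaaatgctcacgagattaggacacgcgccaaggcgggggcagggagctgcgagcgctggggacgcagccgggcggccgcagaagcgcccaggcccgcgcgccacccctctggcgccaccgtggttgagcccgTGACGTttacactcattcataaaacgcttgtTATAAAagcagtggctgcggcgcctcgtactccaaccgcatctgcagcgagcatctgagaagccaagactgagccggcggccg
FOSB, chr19:45467746-45468045, plus strand: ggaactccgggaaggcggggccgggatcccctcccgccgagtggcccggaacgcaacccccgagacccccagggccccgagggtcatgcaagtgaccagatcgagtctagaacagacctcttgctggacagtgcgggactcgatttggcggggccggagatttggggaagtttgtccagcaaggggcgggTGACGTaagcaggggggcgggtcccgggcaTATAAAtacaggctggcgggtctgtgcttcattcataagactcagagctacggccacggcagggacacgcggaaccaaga

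The EGR1 window held 2 CArG boxes, CCATATTAGG and CCATATATGG, whose first bases lie 105 and 83 bases upstream of the start. The second of them recurs in the EGR2 window, 71 bases upstream of that start, and the other 2 EGR2 windows hold no CArG box. Of 35116 RefSeq windows of the same length, 1.29% hold a CArG box. The core TGACGT, which is part of the full element TGACGTCA, was found in the EGR1, EGR2, FOS and FOSB windows and in 7.98% of all windows. The full element was in none of the members' windows and in 1.85% of all. TATAAA stood 33, 31 and 30 bases upstream of the FOS, JUNB and FOSB starts, and 11.5% of all windows hold it. It also stood 230 bases upstream of the start in 1 of 2 ATF3 windows. GCGNGGGCG matched once in EGR1 and once in another EGR2 window, and 9.43% of all windows hold it. The AP-1 site TGANTCA, present in 7.71% of windows, was in none of the members' windows, and the JUN and IER2 windows held none of these motifs. A match is only a match of letters, and its absence says nothing of a factor's binding.

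EGR1 was the 1 gene of the set that passed the test over all genes. This early growth response factor (ENSG00000120738, chromosome 5, 138465479 to 138469303, plus strand) was at 16.7, 16.8 and 17.1 CPM in the raffinose libraries, against 5.31, 5.66 and 5.30 CPM in the untreated libraries (replicates 1, 2 and 3 here and below). CPM is the count scaled to library size, after TMM scaling. All 3 raffinose libraries lay close together and far above all 3 untreated ones. EGR1 rose with a log2 fold change of 1.63 (SE 0.09), or 3.10-fold, and had an adjusted p of 0.00537 in the edgeR fit over the 18863 tested genes. Between libraries of 1 group its highest and lowest CPM differed by a factor of 1.02 among raffinose and 1.07 among untreated libraries, while the median over 11701 tested genes with a mean of at least 1 FPKM was 1.16 and 1.18. Its counts correspond to 78.5 to 275 read pairs a library, whose counting error alone is 6.03% to 11.3%. By size of increase EGR1 was 143rd of all tested genes, and by p-value 3rd.

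**Figure D1:**
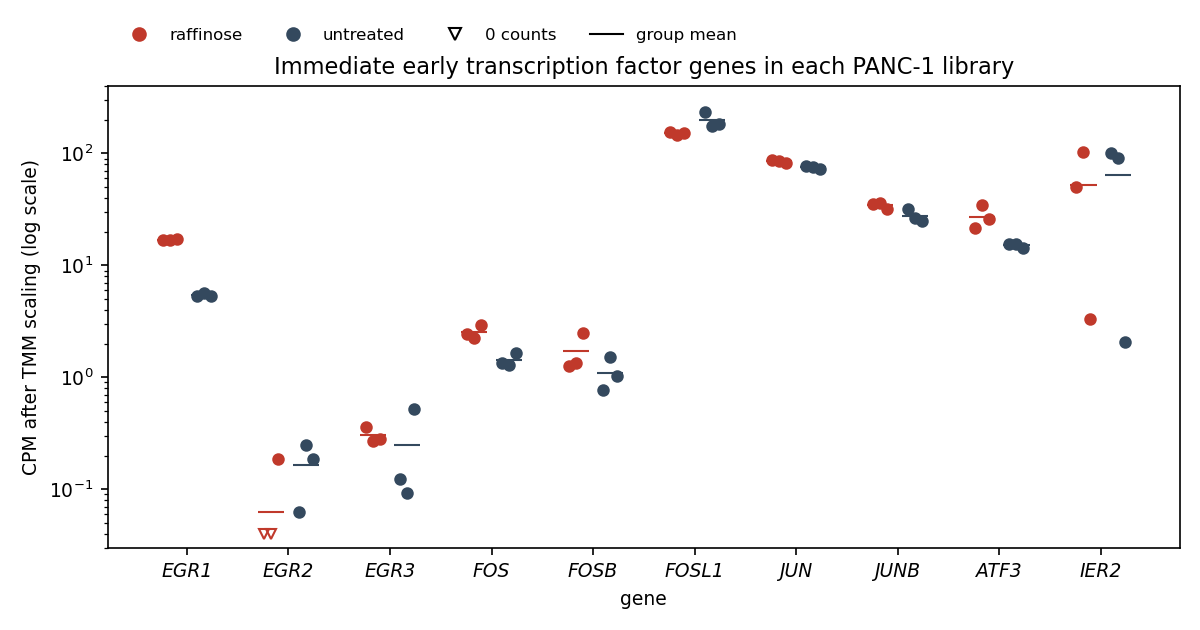
CPM after TMM scaling (log scale) of the 10 immediate early transcription factor genes in each library, raffinose at the left and untreated at the right of each gene, with lines at group means and open triangles for libraries with 0 counts. EGR1 sits at 16.7 to 17.1 CPM in raffinose and 5.30 to 5.66 CPM in untreated libraries, FOSL1 is the highest in all 6, and IER2 falls to 3.31 and 2.08 CPM in 1 library of each group.

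The other EGR genes were almost silent. EGR2, which is best known for its part in myelination and hindbrain patterning, had 0, 0 and 12 counts in raffinose libraries and 4, 16 and 11 counts in untreated libraries. A count of 0 allows up to 3 read pairs, or 0.187 and 0.190 CPM in raffinose replicates 1 and 2, so no fold change is given. EGR3, an ERK-responsive factor studied mostly in neurons and T cells (chromosome 8, 22687659 to 22693480, minus strand), had 23, 17 and 18 counts in raffinose libraries and 8, 6 and 31 counts in untreated libraries. The groups overlapped for both genes, and at 7.75 read pairs or fewer a difference between groups was not detectable at this depth. EGR3 overlaps a long non-coding RNA gene on the opposite strand with 0 to 16 counts in the 6 libraries, and whether the counting used the strand is not given in the sources used here.

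FOS, the inducible partner of JUN (ENSG00000170345, chromosome 14, 75278826 to 75282230, plus strand), was low but higher with raffinose. It was at 2.42, 2.23 and 2.94 CPM in raffinose libraries, against 1.34, 1.29 and 1.66 CPM in untreated libraries. The groups did not overlap. Its log2 fold change was 0.82 (SE 0.20), and it did not pass over all genes (edgeR adjusted p = 0.193), while DESeq2 called it higher (adjusted p = 0.0364). Only 20.8 to 47.3 read pairs a library stand behind these values, with a counting error of 14.5% to 22.0% each.

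FOSB, a close relative of FOS (ENSG00000125740, chromosome 19, 45467995 to 45475179, plus strand), was at 1.26, 1.34 and 2.50 CPM in raffinose libraries and at 0.779, 1.504 and 1.03 CPM in untreated libraries. Untreated replicate 2 was above 2 of the raffinose libraries, so the groups overlapped (log2 fold change 0.62, SE 0.37). Without raffinose replicate 3, the highest of the 6, the log2 fold change was 0.24. FOSB overlaps the DNA repair gene ERCC1, which lies on the opposite strand and had 6044, 6400 and 5719 counts with raffinose and 7944, 7625 and 6641 counts without. FOSB itself had 50 to 161 counts in all 6 libraries.

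FOSL1, which encodes FRA1 (ENSG00000175592, chromosome 11, 65892049 to 65900419, minus strand), was the most abundant FOS gene and lower with raffinose. It was at 156, 145 and 151 CPM in raffinose libraries, against 232, 175 and 184 CPM in untreated libraries. All raffinose libraries were below all untreated ones, with untreated replicate 1 well above the rest. Its log2 fold change was -0.39 (SE 0.11), which did not pass in edgeR (adjusted p = 0.244) or in DESeq2 (adjusted p = 0.0768). Without untreated replicate 1 the log2 fold change was -0.25.

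JUN, the central AP-1 subunit (ENSG00000177606, chromosome 1, 58780791 to 58784047, minus strand), was at 87.7, 85.5 and 82.0 CPM in raffinose libraries and at 77.6, 75.9 and 72.5 CPM in untreated libraries. The groups were close but did not overlap (log2 fold change 0.18, SE 0.06, edgeR adjusted p = 0.3005). JUNB, a JUN relative that can restrain it (ENSG00000171223, chromosome 19, 12791486 to 12793315, plus strand), was at 35.2, 36.1 and 31.6 CPM in raffinose libraries and at 31.8, 26.4 and 24.7 CPM in untreated libraries. Raffinose replicate 3 was just below untreated replicate 1, so the groups overlapped in CPM, whereas in FPKM they did not, with 14.8 to 16.4 in raffinose and 11.2 to 14.0 in untreated libraries. The JUNB log2 fold change was 0.31 (SE 0.12, edgeR adjusted p = 0.331), and neither JUN gene was called by DESeq2.

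ATF3, a stress-induced factor that pairs with JUN proteins and is also a target of ATF4 (ENSG00000162772, chromosome 1, 212565334 to 212620772, plus strand), was at 21.5, 34.6 and 25.7 CPM in raffinose libraries, against 15.4, 15.6 and 14.3 CPM in untreated libraries. All raffinose libraries were higher, and they varied more among themselves than the untreated ones. The log2 fold change was 0.85 (SE 0.18). It did not pass in edgeR (adjusted p = 0.159), and DESeq2 called it higher (adjusted p = 0.00120).

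**Figure D2:**
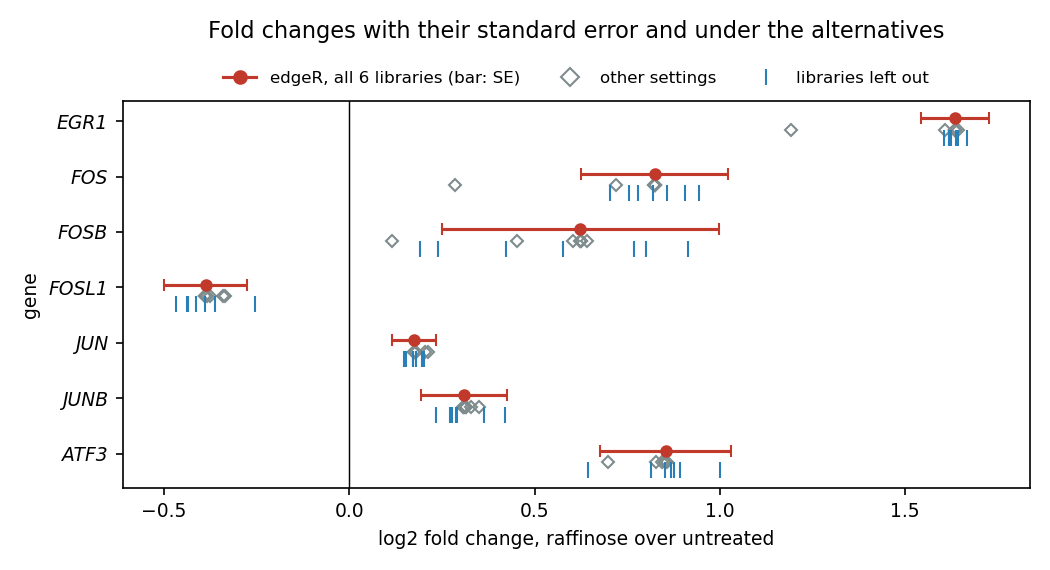
Log2 fold change of raffinose over untreated for 7 genes, from edgeR on all 6 libraries (red, bar: SE), under 7 other settings (diamonds) and with libraries left out (ticks). EGR1 lies at 1.63 and FOSL1 at -0.39, no mark of these 7 genes crosses 0, and the lone diamonds at 1.19 for EGR1 and 0.29 for FOS are limma on log2(FPKM + 1).

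IER2 was set by single libraries in both groups. IER2 (ENSG00000160888, chromosome 19, 13150411 to 13154911, plus strand) had 49.8, 103 and 3.31 CPM with raffinose, and 101, 91.7 and 2.08 CPM without it. The libraries numbered 3 were thus 15.0 and 44.1 times below the next lowest library of their groups. Their IER2 counts of 213 and 123 correspond to 53.25 and 30.75 read pairs. Of 11701 tested genes with a mean of at least 1 FPKM, 21 varied by at least 10-fold within both groups, and in 3 of them, IER2 and the clone-named loci AC117378 and AL049844, both other libraries were at least 10-fold above the library numbered 3 in each group. STX10, a neighbour on the opposite strand, had 1508, 1623 and 1985 counts with raffinose and 1625, 1945 and 1529 counts without. Non-coding genes that overlap IER2 on the opposite strand had 0 to 5 counts in the 6 libraries. The fitted log2 fold change of -0.31 (SE 1.40) therefore carries no direction. Without both libraries numbered 3 it was -0.33, and without raffinose replicate 3 alone 0.24.

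**Figure D3:**
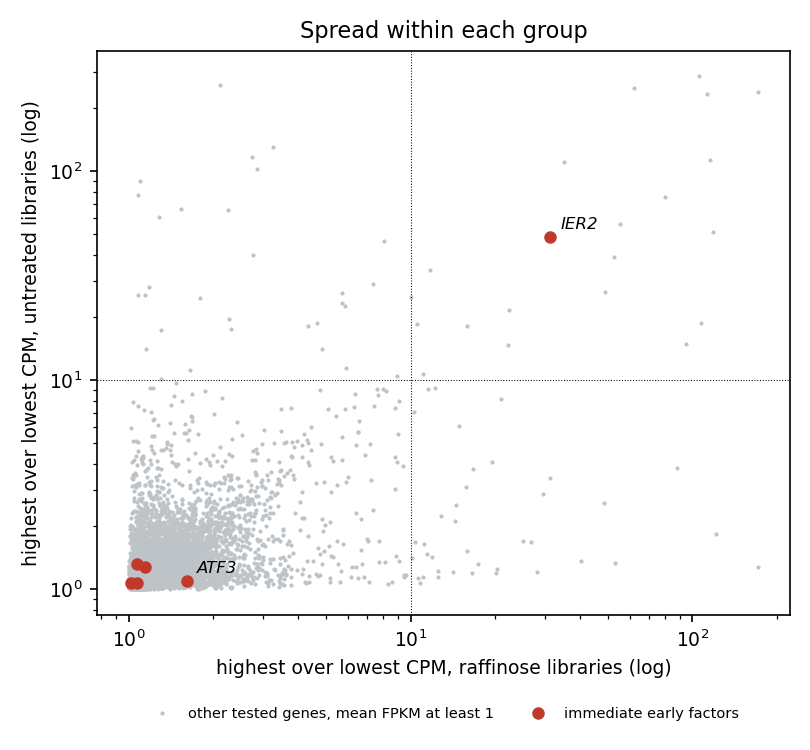
Ratio of the highest to the lowest CPM within the raffinose libraries (x) and within the untreated libraries (y), both on log scales, for 11701 tested genes with a mean of at least 1 FPKM. The immediate early factors above that level lie at 1.61 or less, except IER2, at 31.2 and 48.4, beyond the dotted lines at 10.

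Compared per length, FOSL1 led the set in every library. The median level in raffinose libraries was 68.6 FPKM for FOSL1, 21.8 for JUN, 16.2 for JUNB, 13.6 for IER2, 5.46 for ATF3, 4.48 for EGR1, 0.637 for FOS, 0.194 for FOSB and 0.0459 for EGR3, with EGR2 listed at 0 in 2 of 3 libraries. In untreated libraries the medians were 80.9 for FOSL1, 24.9 for IER2, 19.2 for JUN, 12.0 for JUNB, 3.07 for ATF3, 1.40 for EGR1, 0.329 for FOS and 0.147 for FOSB. ATF3 and EGR1 overlapped in raffinose libraries, at 4.47 to 7.11 and 4.44 to 4.67 FPKM, and did not in untreated libraries, at 2.91 to 3.21 and 1.36 to 1.504 FPKM. IER2, with its low libraries, ran from 0.920 to 27.9 FPKM in raffinose libraries and from 0.551 to 26.3 FPKM in untreated libraries. In both groups its range spanned those of JUN, JUNB, ATF3 and EGR1, so its place among them is not resolved.

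Within the families, 1 gene made most of the FOS sum and 1 most of the EGR sum in every library. FOS, FOSB, FOSL1 and FOSL2 together made 75.4, 69.4 and 74.8 FPKM in raffinose libraries and 105, 84.0 and 87.5 FPKM in untreated libraries. FOSL1 was 92.1% ± 0.388 of that sum with raffinose and 93.0% ± 1.14 without, and FOS 0.902% ± 0.121 and 0.397% ± 0.0879 (SD, n = 3 per group). JUN, JUNB and JUND made 53.6, 60.8 and 58.0 FPKM in raffinose libraries and 54.1, 50.9 and 50.7 FPKM in untreated libraries, with JUND, a JUN gene that is less inducible, at 14.6 FPKM in raffinose replicate 1 and 19.4 to 22.6 FPKM in the other 5 libraries. EGR1, EGR2, EGR3 and EGR4 summed to 4.62, 4.59 and 4.94 FPKM in raffinose libraries and to 1.49, 1.64 and 1.52 FPKM in untreated libraries. EGR1 made up 96.1% ± 1.36 of that sum with raffinose and 91.6% ± 0.326 without.

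**Figure D4:**
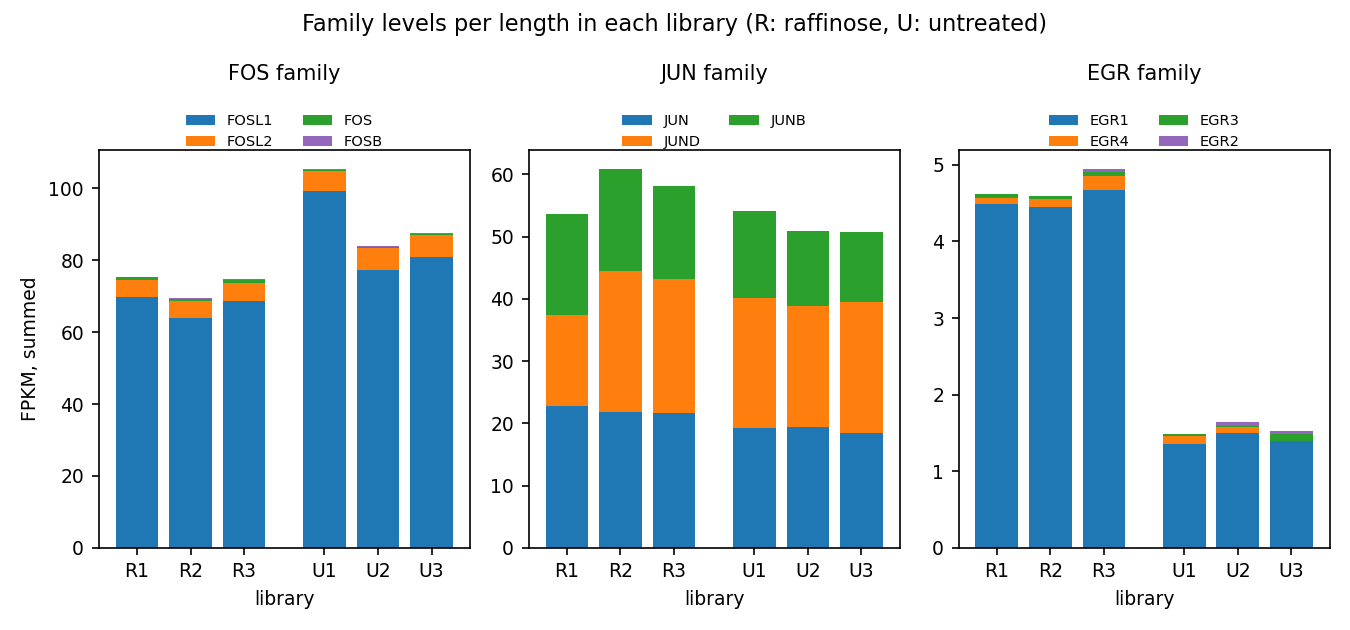
Deposited FPKM of the FOS, JUN and EGR family genes stacked per library, raffinose (R1 to R3) at the left and untreated (U1 to U3) at the right. FOSL1 makes up nearly all of the FOS family sum of 69.4 to 75.4 FPKM in raffinose and 84.0 to 105 FPKM in untreated libraries, and EGR1 nearly all of the EGR sum.

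Across the set, 7 of the 10 genes had a positive log2 fold change, where 51.0% of all tested genes did. The median was 0.30 against 0.01 over all tested genes. The 10 include EGR2, EGR3 and IER2, whose directions are not readable here. All 10 passed the filter on low counts. By edgeR 1 of 10 was called higher, where 0.0371% of all tested genes were, and 0 were called lower, where 0.0848% were. At an unadjusted p under 0.05 the set held 5 higher and 1 lower, beside 6.21% and 7.08% of all tested genes. DESeq2 called 3 higher, where 1.35% of all tested genes were, and 0 lower, where 2.17% were, or 3.51% in either direction. Groups did not overlap for 4 genes that were higher, where 10.6% of all tested genes were such, and for 1 that was lower, where 10.9% were. The genes were picked with this contrast known, so nothing is read from these shares. The EGR1 call was lost without untreated replicate 3 (log2 fold change 1.62, edgeR adjusted p = 0.0594) and without both libraries numbered 3 (1.61, adjusted p = 0.168).

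Of 45 further immediate early genes, 44 were tested. Their log2 fold changes were positive for 26 and negative for 18, where 51.0% of all tested genes were positive, and the median was 0.16. CCN2, a matricellular growth factor, was the 1 gene called over all genes by edgeR. It rose to 167, 173 and 164 CPM in raffinose libraries, against 108, 103 and 101 CPM in untreated ones (log2 fold change 0.69, SE 0.06, adjusted p = 0.0171). The call was lost when raffinose replicate 2 or 3, or untreated replicate 2 or 3, was left out. Lower with raffinose, though not called by edgeR, were the Polo-like kinase gene PLK2 (-0.39, SE 0.06) and FOSL2 (-0.32, SE 0.06), which encodes FRA2. FOSL2 was at 41.7, 39.4 and 42.3 CPM in raffinose libraries and at 49.9, 52.0 and 52.0 CPM in untreated libraries, and the groups did not overlap. BTG1, which restrains proliferation, was higher (0.36, SE 0.08). DESeq2 called CCN2, BTG1, ID2 and CCN1 higher and PLK2, FOSL2 and IER5L lower, which is 4 and 3 of the 44, beside 1.35% and 2.17% of all tested genes. Groups did not overlap for 10 higher genes (22.7% of the 44) and 5 lower ones (11.4%), beside 10.6% and 10.9% of all tested genes. This list too was chosen with earlier results of these data known, so nothing is read from these shares.

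Among classical companions of EGR1, NR4A1 and IER3 overlapped between groups. The orphan receptor NR4A1 was at 9.06, 5.18 and 8.37 CPM in raffinose libraries and at 6.40, 5.33 and 5.03 CPM in untreated ones. The early response gene IER3 was at 101, 104 and 99.7 CPM in raffinose libraries, against 107, 93.5 and 88.8 CPM in untreated libraries. DUSP1, the MAP kinase phosphatase that is itself an immediate early gene, did not overlap, with 45.5, 49.1 and 43.9 CPM in raffinose and 41.8, 35.8 and 36.5 CPM in untreated libraries (log2 fold change 0.28, SE 0.09, edgeR adjusted p = 0.275). MYC was at 11.4, 65.7 and 61.3 CPM in raffinose and 13.1, 7.99 and 12.3 CPM in untreated libraries, so that raffinose replicate 1 lay among the untreated libraries. NR4A1, IER3, DUSP1 and MYC were chosen after their values were seen.

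**Figure D5:**
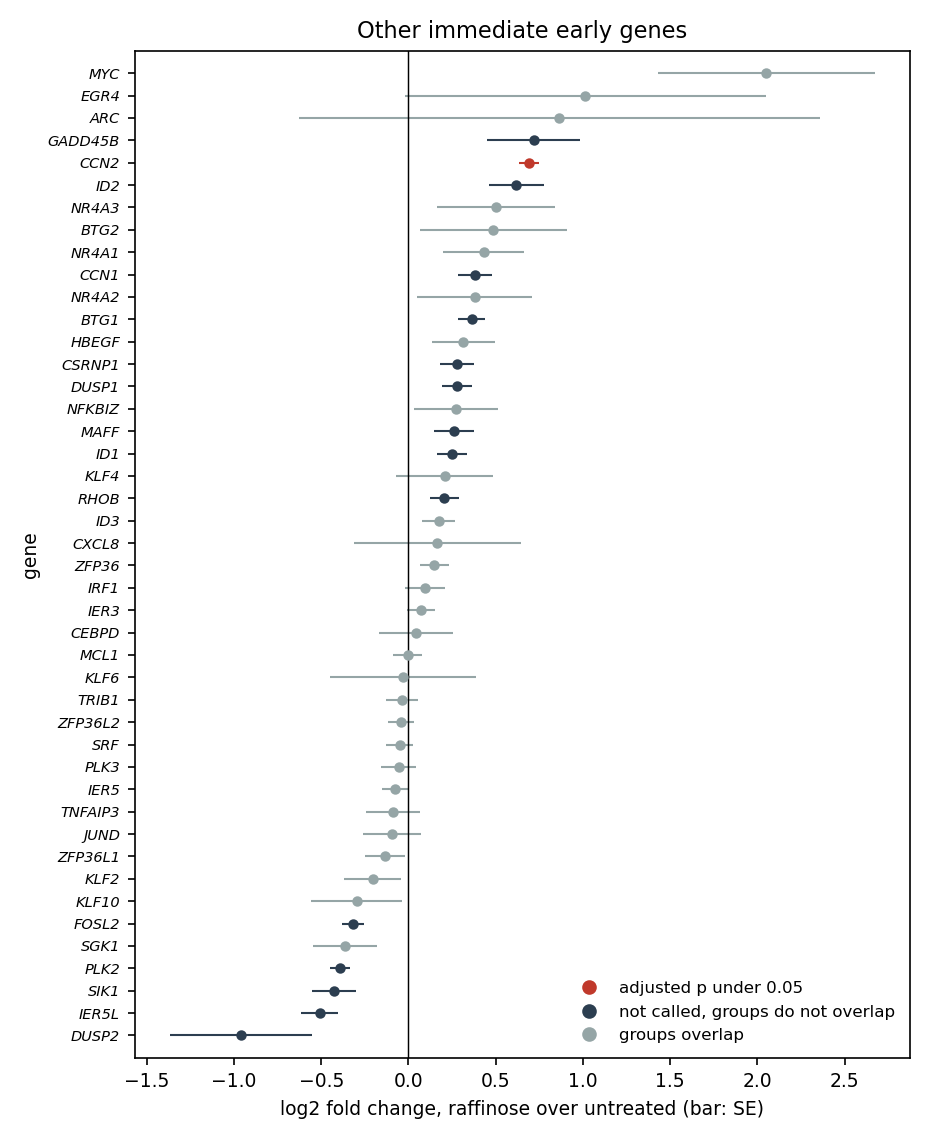
Log2 fold change of raffinose over untreated (bar: SE) for 44 further immediate early genes, ordered by value; red marks an edgeR adjusted p under 0.05, dark grey genes that were not called but whose groups do not overlap, light grey overlapping groups. CCN2 at 0.69 is the red point, and the genes spread to both sides of 0 around a median of 0.16.

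None of the genes that carry signals to these promoters passed over all genes in edgeR. Of 27 tested upstream genes, among them SRF, ternary complex factors, CREB1 and MAP kinases, 15 were positive and 12 negative with a median of 0.0035, and edgeR called 0 of them. At an unadjusted p under 0.05 there was 1, ELK3, a ternary complex factor gene (log2 fold change 1.063, SE 0.35, overlapping groups), which DESeq2 called higher. SRF itself was at 71.2, 75.8 and 74.1 CPM in raffinose libraries and at 70.5, 75.2 and 83.3 CPM in untreated libraries. Of 20 tested partners and relatives, which include FOSL2, JUND, other ATF, MAF and CREB family genes, EGR4 and the EGR corepressor genes NAB1 and NAB2, 8 were positive and 12 negative with a median of -0.04. edgeR called 0, 2 were lower at an unadjusted p under 0.05 (FOSL2 and ATF4), and DESeq2 called FOSL2 lower. Both lists stand beside 6.21% of all tested genes higher and 7.08% lower at that p. DESeq2 called 1.35% of all tested genes higher and 2.17% lower, and 51.0% had a positive log2 fold change. NAB2, a corepressor that EGR1 is known to induce, was at 32.8, 24.8 and 31.5 CPM in raffinose libraries, against 31.7, 28.97 and 29.7 CPM in untreated libraries.

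Listed target genes were not called by edgeR either. Of 20 EGR targets 7 were positive and 13 negative (median log2 fold change -0.04), with 0 calls, 2 higher and 2 lower at an unadjusted p under 0.05, and 2 higher and 1 lower in DESeq2. Of all tested genes, 51.0% were positive, 6.21% were higher and 7.08% lower at that p, and DESeq2 called 1.35% higher and 2.17% lower. The BH3-only gene BCL2L11 was at 10.3, 11.3 and 4.80 CPM in raffinose libraries and at 3.83, 3.89 and 3.63 CPM in untreated ones (log2 fold change 1.22, SE 0.31), with raffinose replicate 3 nearest to them. The prostaglandin synthase gene PTGES was at 12.3, 12.5 and 10.98 CPM in raffinose libraries, against 18.2, 14.5 and 15.1 CPM in untreated libraries (log2 fold change -0.41, SE 0.12, edgeR adjusted p = 0.251).

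Of 22 listed AP-1 targets 15 were tested, and 12 of these were negative, with a median log2 fold change of -0.28. Of all tested genes, 51.0% were positive. edgeR called 0, while 6 were lower at an unadjusted p under 0.05 and DESeq2 called 4 lower and 0 higher, where 7.08% of all tested genes were lower at that p and 2.17% were called lower by DESeq2. The urokinase gene PLAU was at 166, 176 and 154 CPM in raffinose libraries, against 252, 239 and 238 CPM in untreated libraries (log2 fold change -0.56, SE 0.07, edgeR adjusted p = 0.0590). The hyaluronan receptor gene CD44 (-0.59, SE 0.11) and the integrin gene ITGB4 (-0.29, SE 0.07) were also lower in DESeq2. Groups did not overlap for 8 of the 15 (53.3%), all lower, where 10.9% of all tested genes were lower in that way. Like the members, the listed targets were chosen with earlier results of these data known, so nothing is read from these shares. The collagenase gene MMP1 was at 0.609, 0.885 and 1.12 CPM in raffinose libraries and at 1.03, 1.24 and 1.25 CPM in untreated libraries, and MMP3, MMP10, MMP13 and IL6 fell below the filter.

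Profiles over the 6 libraries were compared by the root mean square difference of log2 CPM centred on the untreated mean. A small constant was first added to CPM, which shrinks differences at low levels. The expression profile most like that of EGR1 was that of the dehydrogenase gene DHRS2 (0.14 log2 units). TMEM123 (0.15), SLC39A9 (0.17), ZNF530 (0.32) and SERPINI1 (0.41) followed among 11956 candidate genes. DHRS2 was at 19.7, 21.3 and 20.9 CPM in raffinose libraries and at 7.94, 7.599 and 7.64 CPM in untreated ones, so its groups did not overlap. None of these 5 is among the 45 further immediate early genes, and the members were not candidates. With so few listed genes among the candidates, nothing is read from that. The profiles nearest to FOS were those of HMGN5 (0.05), VIM-AS1 (0.06), CDADC1 (0.09), ZNF711 (0.10) and BCAM (0.11). Their log2 fold changes of 0.57 to 0.72 were all below the 0.82 of FOS, which is low enough for the constant to shrink its shift. The FOS counting error of 14.5% to 22.0% a library also limits this ranking.

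The 10 genes share a compact build that did not enter their choice. In GENCODE 29 the transcript with the longest coding sequence has 1 exon for JUN and JUNB, 2 for EGR1, EGR2, EGR3 and IER2, and 4 for FOS, FOSB, FOSL1 and ATF3, whereas the median of 13707 tested protein-coding genes is 9, and 21.1% have at most 4. The span in the deposited table is under 10000 bases for 8 of the 10 and for 20.05% of those genes. EGR2 and ATF3, with 107905 and 55439 bases, are the exceptions. Of the terms paired with genes in the deposited table, "response to cAMP" is attached to FOS, FOSB, FOSL1, JUN and JUNB and to 33 tested genes in all, and "response to mechanical stimulus" to the same 5 and to 49. Of these 5 genes, FOS and JUN were higher and FOSL1 lower with groups that did not overlap in CPM. Of all tested genes, 10.6% were higher and 10.9% lower in that way. The members were picked with this contrast known, so nothing is read from it about these terms.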

How the data were processed

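Strand-marked libraries were made from poly(A) RNA and sequenced as read pairs, per the labels' protocols. Of tools, the submitters' processing notes list HISAT2 2.0.4, StringTie 1.3.4d and cutadapt 1.9, beside DESeq2 and edgeR, with no role for each. No source used here gives the build, the annotation or whether counting used the strand. In 1 table the authors deposited FPKM values and estimated counts, per the file headers, 1 of each per gene and library. These deposited estimated counts are whole numbers, and the authors list FPKM at 0.0001 where a gene has no reads.

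The main test was edgeR 4.0.16 in R 4.3.3 on the deposited counts: filterByExpr with a minimum count of 10 kept 18863 of 60612 genes, libraries were scaled by TMM, and groups were compared with glmQLFit and glmQLFTest, with Benjamini-Hochberg adjustment over all tested genes and a threshold of 0.05. The SE is the log2 fold change divided by the root of the F statistic. DESeq2 1.42.0, limma 3.58.1 on log2(FPKM + 1) and log2(FPKM + 0.1), other size factors, no filter, counts divided by 4, the replicate number as a block and each library left out in turn were alternatives.

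The members and the gene lists were chosen with earlier results of these data known. The text names the members, the called genes and up to 4 genes with the smallest p of each list, and the 5 profiles nearest to EGR1 and to FOS; any other gene was chosen after its values were seen. Some genes the rule takes are left out of the text. Replicate libraries differed by more than sampling noise in all pairs within groups. Precision given in read pairs covers counting error only.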

Additional observations from a re-analysis of the deposited data

How the results depend on the processing

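The log2 fold changes of EGR1, FOS, FOSB, FOSL1, JUN, JUNB and ATF3 kept their sign under all 14 alternatives, while those of EGR3 and IER2, never called, turned. EGR3 had -0.023 without untreated replicate 1 and -0.092 without untreated replicate 2, and ranged from -0.092 to 1.51 with libraries left out. IER2 had 0.24 without raffinose replicate 3, 0.15 without untreated replicate 1 and 0.015 without untreated replicate 2, in a range of -1.29 to 0.24. EGR1 was called in 11 of 14 alternatives, with log2 fold changes of 1.19 to 1.67 and adjusted p up to 0.265. FOS and ATF3 were called by DESeq2 alone.

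Over all genes edgeR called 7 higher and 16 lower. DESeq2 called 254 and 409, counts divided by 4 gave 11 and 24, and limma on log2(FPKM + 0.1) called 11 higher. With libraries left out, 0 to 15 were called higher and 1 to 13 lower. Leaving out untreated replicate 3 gave that 0, with 948 higher genes at an unadjusted p under 0.05. The count of the 10 immediate early factors called higher was 1, against 3 in DESeq2 and 0 to 1 with libraries left out. For the further immediate early genes the counts of 1 higher and 0 lower became 4 and 3 in DESeq2, and 0 to 1 higher with libraries left out. The cause of these differences was not tested. Leaving out both libraries numbered 3 was chosen after seeing the data.

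With the replicate number as a block edgeR called 0 genes higher and 0 lower, with 890 and 1042 at an unadjusted p under 0.05, and 0 of the immediate early genes. EGR1 then had a log2 fold change of 1.64 and an adjusted p of 0.265. The labels do not say that a number marks a shared culture. Deviations of same-numbered libraries from their group means had correlations of -0.018, -0.063 and 0.014, and no library had its best correlation with the one of its own number.

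Depth limits EGR2 and EGR3, at 0 to 7.75 read pairs a library, and leaves FOS and FOSB with counting errors of 14.5% to 28.3%.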
